A study of Homo sapiens with 6 samples.

Results

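The retinoblastoma pocket proteins, the MuvB core that joins them to target promoters, and the pair of mitotic activators that share this core were followed at the RNA level in palbociclib-treated LNCaP cells. The 10 genes were chosen by name, and each matched a single row of the 35430 genes in the deposited table. They comprise the pocket proteins RB1, RBL1 and RBL2, the MuvB subunits LIN9, LIN37, LIN52, LIN54 and RBBP4, and the activators MYBL2 and FOXM1. One group was 3 libraries of LNCaP cells kept for 1 week in 0.5 µM palbociclib, a CDK4 and CDK6 inhibitor. The other was 3 libraries of control LNCaP cells, for which the labels give no vehicle and no culture time. LNCaP is an established human prostate cancer line, known to retain RB1. Polyadenylated RNA was sequenced. Nothing in the labels says that replicates were separate cultures, and every p-value therefore rests on a library-to-library spread that could be technical.

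Pocket proteins bind E2F transcription factors and hold cell cycle genes silent until cyclin-dependent kinases phosphorylate them. In resting cells p130 (RBL2) or p107 (RBL1) joins E2F4 or E2F5, a DP partner and MuvB in the DREAM complex, which represses genes of S phase and of mitosis. When cells enter the cycle, MuvB loses the pocket protein and binds B-MYB (MYBL2) and then FOXM1, which turn on the mitotic genes. CDK4 and CDK6, the drug's targets, phosphorylate all of the pocket proteins.

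Of the 10 genes, 5 fell with palbociclib and none rose: MYBL2, FOXM1, RBL1, LIN9 and LIN54. RB1, RBL2, LIN37, LIN52 and RBBP4 did not pass the test. The calls come from edgeR's quasi-likelihood model fitted to every gene, with Benjamini-Hochberg adjusted p under 0.05. In that fit 18.5% of the 21218 genes tested were called lower and 20.1% higher (38.6% in either direction), and against control library 3 alone 2182 genes rather than 3921 were called lower. Of the calls, 52.1% were higher with this TMM scaling and 36.1% when libraries were scaled by their totals alone, which moved the median of all genes by -0.11 on the log2 scale. Levels are CPM, each library's counts scaled to a common total with edgeR's TMM factors, and every fold change is palbociclib over control. Means of CPM and FPKM are given ± SD over 3 libraries a group. In bulk RNA, fewer cycling cells and less RNA per cell cannot be told apart.

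Library totals were 59183323 to 76211410 estimated counts with palbociclib and 57082715 to 78117945 in controls, with about 4 counts to a fragment. Control library 3 lay farthest from the other libraries of its group, at a median absolute distance of 0.0929 log2 units, against 0.0644 to 0.0785 for the other libraries of the series. All 10 LNCaP markers were expressed, with a summed level of 8958 to 9175 CPM in palbociclib libraries and 5880 to 5918 CPM in controls. With the drug 7 of them were called higher (70%, beside 20.1% of all genes tested), KLK3 among them. The 2 called lower (20%, beside 18.5%) were FOLH1 (-0.29 on the log2 scale) and EPCAM (-0.19). Heat shock genes were called higher in 10 of 10 cases (100%, beside 20.1% of all genes tested). Their sum was 9265 to 9480 CPM in palbociclib libraries and 5120 to 5274 CPM in controls. The share of counts on mitochondrially encoded genes was 7.05% to 7.43% with palbociclib and 5.67% to 6.15% in controls. Their part in the results was not tested. Markers of other cells were low: 4 tested fibroblast genes, of which COL1A1 made up most (29.2 CPM with palbociclib and 26.0 CPM in controls), did not pass, 5 leukocyte genes summed to 5.91 to 8.34 CPM with palbociclib and 4.00 to 5.79 CPM in controls, and 3 endothelial genes to 5.54 to 6.59 and 9.84 to 13.6 CPM. Among these, CD68 rose and PTPRC and VWF fell, and PTPRC, CD3E and PECAM1 averaged 0.470, 0.246 and 0.144 CPM with palbociclib and 1.19, 1.04 and 0.326 CPM in controls. Genes of basal cells and of mesenchymal-type lines, 4 of them tested, summed to 18.1 to 22.5 CPM with palbociclib and 19.9 to 33.5 CPM in controls, with KRT14 higher and CAV1 lower. The part of these other cells' genes was not tested either.

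**Figure D1:**
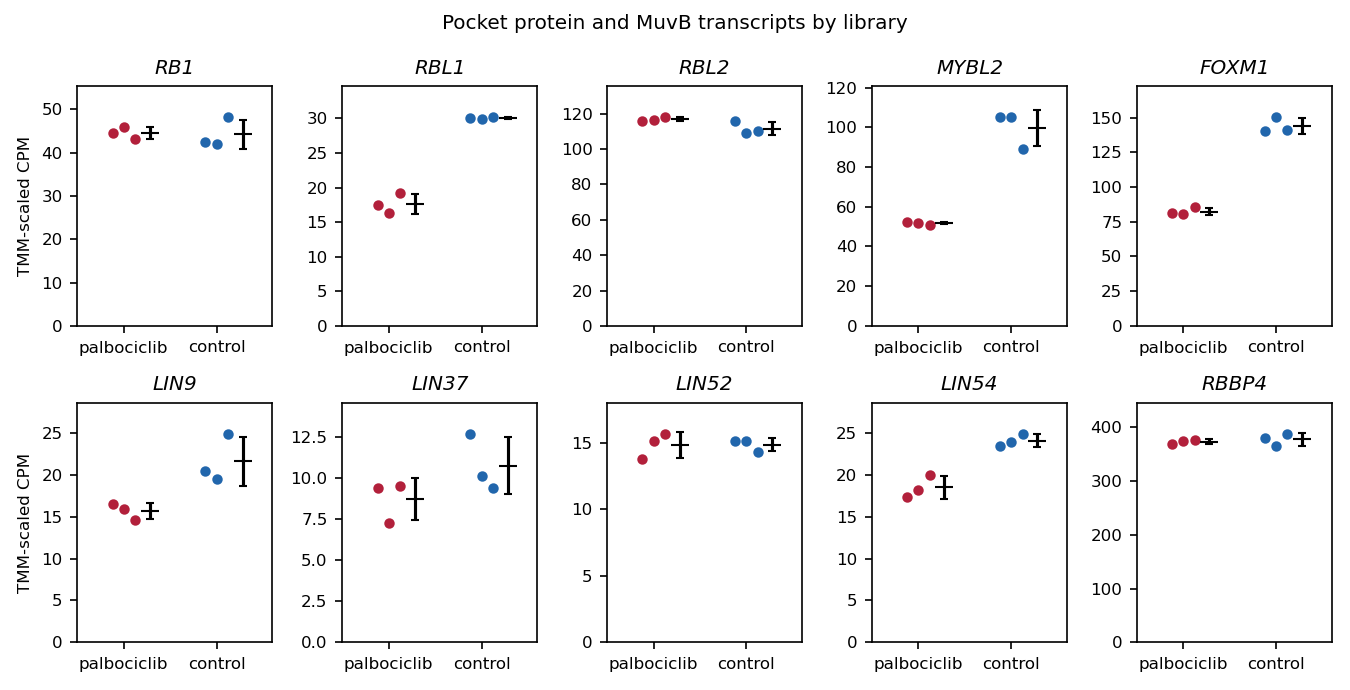
TMM-scaled CPM (y axis, from 0) of the 10 genes in each library, with palbociclib in red and control in blue, and the group mean with its SD (n = 3) in black. RBL1, MYBL2, FOXM1, LIN9 and LIN54 are lower in every palbociclib library than in every control library, and RB1, LIN37, LIN52 and RBBP4 overlap between the groups. RBL2 is higher in every palbociclib library but was not called. Groups failed to overlap for 51.1% of all genes tested.

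Among the pocket proteins, only RBL1 passed the test. RBL1 encodes p107, the pocket protein that cycling cells make under E2F control. It stood at 17.5, 16.3 and 19.2 CPM in palbociclib libraries 1, 2 and 3, against 30.1, 29.9 and 30.2 CPM in control libraries 1, 2 and 3. The control libraries lay within 1 CPM of each other and far above every treated library. RBL1 averaged 17.7 ± 1.43 CPM with palbociclib and 30.0 ± 0.167 CPM in controls (SD, n = 3 each). It was thus 1.70-fold lower, at -0.77 ± 0.0774 on the log2 scale (± SE here and for all log2 values; edgeR adjusted p = 8.42e-05). The gene (ENSG00000080839) lies on the minus strand at chr20:36996349-37095997 of hg38, the build of all positions here.

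The promoter of RBL1 is shown because its start holds a pair of E2F-type sequences side by side. The window of 300 bases from RefSeq (GRCh38.p14, chr20:37095948-37096247, minus strand, 250 bases before to 50 after the start) is printed 5′ to 3′ with matches to TTTNNCGC, an E2F consensus, in capitals.
RBL1 promoter: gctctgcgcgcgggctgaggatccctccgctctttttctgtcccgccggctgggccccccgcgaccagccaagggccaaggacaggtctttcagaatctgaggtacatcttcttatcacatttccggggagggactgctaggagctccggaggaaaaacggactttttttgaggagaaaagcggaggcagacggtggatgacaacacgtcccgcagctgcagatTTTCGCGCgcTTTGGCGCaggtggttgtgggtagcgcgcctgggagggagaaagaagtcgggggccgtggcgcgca
The matches begin at positions -26 and -16 relative to the start. TTTNNCGC, read on both strands, occurs in 6.89% of the 35116 promoter windows of the same table, and no match overlapped another in the promoters of the 9 genes, all but FOXM1, that matched an entry of the table. The match is a description of the sequence and does not show that a factor binds there.

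RBL2 encodes p130, the pocket protein that is most abundant in resting cells. It was at 115.9, 116.5 and 118.0 CPM in palbociclib libraries and at 115.7, 109.0 and 110.2 CPM in controls. Every treated library was above every control library, but the gap between palbociclib library 1 and control library 1 was small, and groups failed to overlap for 51.1% of all genes tested. The log2 fold change of RBL2 was 0.07 ± 0.0395, with a 95% interval of -0.02 to 0.16 (edgeR adjusted p = 0.235). It ran from -0.05 to 0.09 over 15 alternative settings, so that its sign depended on the setting. RBL2 (ENSG00000103479, chr16:53433977-53491628, plus strand) shares 609 of its 8110 exon bases with AKTIP on the opposite strand. AKTIP fell by 0.30 on the log2 scale (edgeR adjusted p = 0.00281), and a read within those bases could come from either gene unless strand was used in counting.

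RB1 encodes the retinoblastoma protein, which binds the activating E2Fs. Its level was 44.5, 46.0 and 43.0 CPM in palbociclib libraries and 42.4, 42.1 and 48.1 CPM in controls. The treated libraries all fell inside the range of the controls, whose highest value was that of library 3. RB1 (ENSG00000139687, chr13:48303744-48599436, plus strand) had a log2 fold change of 0.01 with a 95% interval of -0.14 to 0.16 (edgeR adjusted p = 0.921).

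With RBL1 lower, the ratio of p130 to p107 transcripts was higher in every palbociclib library than in every control library. This ratio restates the RBL1 and RBL2 values of the same libraries. Levels of different genes are compared here as FPKM, fragment counts scaled for exon length and for mapped reads, as deposited. The ratio of RBL2 to RBL1 in FPKM was 4.86, 5.25 and 4.52 in palbociclib libraries 1, 2 and 3, against 2.83, 2.68 and 2.68 in control libraries 1, 2 and 3. The groups did not overlap, and the ratio was 1.78-fold higher with palbociclib. A two-sided exact permutation test gave p = 0.1, the smallest value that 3 against 3 libraries allow, and 0.1 after adjustment over the 3 ratios tested.

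MYBL2 and FOXM1 had the lowest fold changes and the lowest adjusted p of the 10 genes. MYBL2 encodes B-MYB, which replaces the pocket protein on MuvB in S phase. Its level was 52.1, 51.9 and 51.0 CPM in palbociclib libraries, against 105.0, 105.0 and 89.3 CPM in control libraries 1, 2 and 3. The treated libraries were nearly equal, and control library 3 was the lowest control while still above all of them. MYBL2 averaged 51.7 ± 0.58 CPM with palbociclib and 99.8 ± 9.06 CPM in controls (SD, n = 3 each), 1.93-fold lower (log2 value -0.95 ± 0.0654, edgeR adjusted p = 9.62e-06). Against control library 3 alone the log2 fold change was -0.80 (edgeR adjusted p = 0.000447).

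FOXM1 is the forkhead factor that joins B-MYB and MuvB on mitotic promoters in G2. It measured 81.0, 80.5 and 85.5 CPM with palbociclib and 140.2, 150.2 and 140.8 CPM in controls. No treated library came near a control library. FOXM1 was 1.75-fold lower (log2 value -0.80 ± 0.0455, edgeR adjusted p = 3.15e-06). FOXM1 (ENSG00000111206, chr12:2857680-2877174, minus strand) shares 782 of its 4919 exon bases with ITFG2 on the opposite strand. ITFG2 averaged 2.01 FPKM with palbociclib and 2.83 FPKM in controls, against 15.5 and 29.2 FPKM for FOXM1, and its part in the FOXM1 value was not tested.

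The promoter of MYBL2 (ENSG00000101057, gene at chr20:43667019-43716495, plus strand) is printed because this gene had the lowest log2 fold change of the 10. The RefSeq window, chr20:43666864-43667163 on the plus strand, has no match to TTTNNCGC or to TTTGAA, the CHR element (cell cycle genes homology region) that LIN54 recognises, so that it is in lower case throughout.
MYBL2 promoter: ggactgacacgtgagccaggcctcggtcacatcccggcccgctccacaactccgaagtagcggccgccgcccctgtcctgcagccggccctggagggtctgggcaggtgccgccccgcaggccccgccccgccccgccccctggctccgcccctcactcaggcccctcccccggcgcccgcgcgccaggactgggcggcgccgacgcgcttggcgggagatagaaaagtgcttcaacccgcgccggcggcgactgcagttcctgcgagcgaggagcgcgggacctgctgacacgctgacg
The absence of a match says only that these exact letters are not in this window. Other forms of an E2F site or of the CHR element were not searched for.

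In the MuvB core, LIN9 and LIN54 fell, and LIN37, LIN52 and RBBP4 did not pass. LIN9, a scaffold subunit, was at 16.5, 15.9 and 14.5 CPM in palbociclib libraries and 20.5, 19.4 and 24.9 CPM in controls. The groups did not overlap, with the widest gap to control library 3. On the log2 scale it was at -0.46 ± 0.11 (edgeR adjusted p = 0.00931), and without control library 3 it was -0.35 (edgeR adjusted p = 0.0225).

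LIN54 is the DNA-binding subunit that reads the CHR element through its cysteine-rich domain. It was at 17.3, 18.2 and 19.9 CPM in palbociclib libraries, against 23.5, 23.9 and 24.9 CPM in controls. Every treated library was lower than every control library. LIN54 fell by 23.2% (log2 value -0.38 ± 0.0795, edgeR adjusted p = 0.00504). LIN9 (ENSG00000183814) lies at chr1:226231149-226309869 and LIN54 (ENSG00000189308) at chr4:82909973-83012911, both on the minus strand, and neither shared exon bases with another gene that had 60 counts or more over the libraries.

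A promoter window of each falling MuvB subunit is shown because it holds a copy of the element that LIN54 recognises. Capitals mark TTTGAA, and the RefSeq windows are chr1:226309115-226309414 for LIN9, 1 of 3 listed starts, and chr4:83010774-83011073 for LIN54, 1 of 2, on the minus strand.
LIN9 promoter: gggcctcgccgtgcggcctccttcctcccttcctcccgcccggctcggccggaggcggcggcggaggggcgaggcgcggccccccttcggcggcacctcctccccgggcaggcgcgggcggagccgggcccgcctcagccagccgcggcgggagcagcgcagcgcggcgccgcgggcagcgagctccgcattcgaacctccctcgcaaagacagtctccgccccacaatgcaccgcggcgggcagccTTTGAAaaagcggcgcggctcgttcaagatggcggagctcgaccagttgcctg
LIN54 promoter: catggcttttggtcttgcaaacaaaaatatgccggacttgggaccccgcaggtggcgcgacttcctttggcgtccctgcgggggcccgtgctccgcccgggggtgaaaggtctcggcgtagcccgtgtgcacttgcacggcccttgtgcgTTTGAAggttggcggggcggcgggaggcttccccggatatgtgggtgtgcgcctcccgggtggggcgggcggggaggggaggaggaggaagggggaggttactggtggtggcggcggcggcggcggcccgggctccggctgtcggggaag
The element begins at position -3 in LIN9 and at -100 in LIN54. The other LIN9 windows hold no match, and the other LIN54 window holds the same copy at -89. Its part in the falls was not tested. TTTGAA on either strand is found in 15.2% of all promoter windows in the table. It also occurs in a window of RBL2 and in one of LIN37, which did not pass the test.

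LIN52 carries the motif through which MuvB docks on p107 or p130 once the kinase DYRK1A has phosphorylated it. LIN52 was at 13.8, 15.1 and 15.7 CPM with palbociclib and at 15.1, 15.2 and 14.3 CPM in controls. The groups overlapped, and the log2 fold change was 0.00 with a 95% interval of -0.21 to 0.20 (edgeR adjusted p = 0.993). LIN52 (ENSG00000205659, chr14:74084956-74201493, plus strand) is shown beside RBL1 because its window, chr14:74084706-74085005, also holds TTTNNCGC, in capitals, at position -25.
LIN52 promoter: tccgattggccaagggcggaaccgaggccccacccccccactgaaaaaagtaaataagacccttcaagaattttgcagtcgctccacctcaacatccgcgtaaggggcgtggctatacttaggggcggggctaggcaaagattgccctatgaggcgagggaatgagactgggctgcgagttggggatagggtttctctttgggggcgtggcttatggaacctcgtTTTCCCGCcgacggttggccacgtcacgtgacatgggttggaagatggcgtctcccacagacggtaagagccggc
RBL1, which was called lower, held 2 E2F-type matches close to the start, and LIN52, which was not called, held 1. Whether such matches go with the fold changes of these genes was not tested.

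LIN37, a subunit needed for repression by DREAM, was the most thinly covered of the 10, with 468 to 687 estimated counts per palbociclib library and 590 to 1028 per control library. It measured 9.38, 7.23 and 9.52 CPM with palbociclib and 12.7, 10.1 and 9.41 CPM in controls. The groups overlapped, and the log2 fold change of -0.30 had a 95% interval of -0.66 to 0.05 (edgeR adjusted p = 0.163), which includes the value of LIN9. LIN37 (ENSG00000267796, chr19:35748361-35754519, plus strand) shares 1180 of 2820 exon bases with an unnamed opposite-strand locus that had 71 counts over all libraries.

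RBBP4 is a histone-binding protein that MuvB shares with several chromatin complexes. It was at 368.4, 375.3 and 376.2 CPM with palbociclib and at 379.8, 365.5 and 388.2 CPM in controls. The groups overlapped, with a log2 fold change of -0.02 and a 95% interval of -0.10 to 0.06 (edgeR adjusted p = 0.747). RBBP4 was called lower when counts were scaled by library size alone (-0.13, edgeR adjusted p = 0.0172), a setting that moved the median of all genes by -0.11. RBBP4 (ENSG00000162521, chr1:32651142-32680657, plus strand) has processed pseudogenes in the table, of which RBBP4P1 carried the most, 334 to 403 counts per palbociclib library and 312 to 557 per control library, or 1.57% of the RBBP4 count.

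In FPKM, the upper 5 places were held by the same genes in the same order in both groups. RBBP4 was highest in both groups, at 36.5 ± 0.512 FPKM with palbociclib and 39.9 ± 1.01 FPKM in controls. MYBL2 came next at 17.3 ± 0.15 and 35.9 ± 3.39 FPKM in the palbociclib and control groups, then FOXM1 at 15.5 ± 0.557 and 29.2 ± 1.28 FPKM. RBL2 (13.3 ± 0.156 with palbociclib and 13.8 ± 0.423 FPKM in controls) and RB1 (6.41 ± 0.205 and 6.86 ± 0.502 FPKM) followed. RBL1 was at 2.75 ± 0.228 FPKM with palbociclib, at rank 9, and at 5.04 ± 0.00295 FPKM in controls, at rank 6. LIN9, LIN52, LIN37 and LIN54 lay between 2.36 and 3.84 FPKM in treated libraries and between 3.30 and 5.56 FPKM in controls. Neighbours in this low range overlapped: with palbociclib, LIN52 and LIN9, LIN9 and LIN37, LIN37 and RBL1, and RBL1 and LIN54, and in controls RBL1 and LIN9, LIN52 and LIN37, and LIN37 and LIN54.

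Relative to the core, each activator was lower in every palbociclib library than in every control library. The ratio of MYBL2 to the geometric mean of LIN9, LIN37, LIN52 and LIN54, in FPKM, was 5.76, 5.95 and 5.42 in palbociclib libraries and 9.22, 9.82 and 8.05 in controls, 1.58-fold lower with the drug. For FOXM1 the same ratio was 5.04, 5.21 and 5.12 with palbociclib and 6.94, 7.93 and 7.16 in controls, 1.43-fold lower. In each ratio the groups did not overlap, and each exact permutation test gave p = 0.1, adjusted p = 0.1, its floor for 6 libraries. RBBP4 was left out of the core mean because it serves many other complexes.

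**Figure D2:**
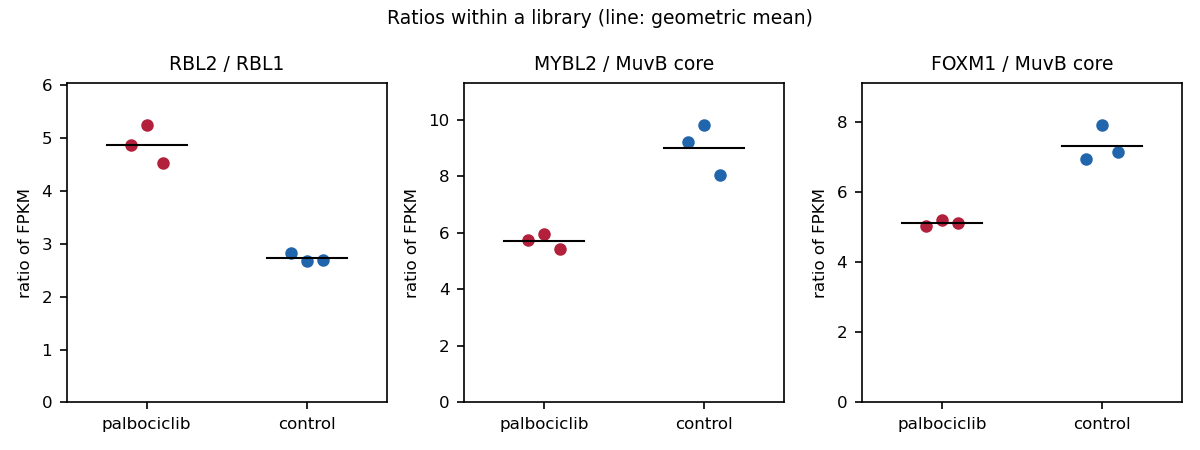
Ratios of FPKM within each library (y axis, from 0) for palbociclib and control, with the geometric mean of each group as a line. The RBL2 to RBL1 ratio runs from 4.52 to 5.25 with palbociclib and from 2.68 to 2.83 in controls, and the activator ratios are lower in every palbociclib library.

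Of the 9 partners that complete DREAM or stand close to its subunits, 1 rose (11.1%) and 2 fell (22.2%), beside 20.1% and 18.5% of all genes tested, with a median log2 fold change of 0.04. E2F4, the main repressive E2F of the complex, averaged 69.8 ± 0.883 CPM with palbociclib and 67.2 ± 2.13 CPM in controls (log2 fold change 0.05, edgeR adjusted p = 0.357). E2F5, its close relative, averaged 19.2 ± 2.17 and 15.3 ± 0.178 CPM in the palbociclib and control groups (0.33 ± 0.0989, edgeR adjusted p = 0.0274), but that call was lost in 9 of 15 alternatives, each single-library omission except that of palbociclib library 1 among them, at edgeR adjusted p of 0.0617 to 0.103 (range 0.0112 to 0.181 over all 15). E2F5 shares 997 of 5999 exon bases with RBIS. MYBL1, the A-MYB relative of MYBL2, fell to 7.98 ± 0.843 CPM with palbociclib, against 13.9 ± 0.922 CPM in controls (-0.80 ± 0.116, edgeR adjusted p = 0.000694). DYRK1A, the kinase that starts DREAM assembly, fell by 0.28 on the log2 scale (edgeR adjusted p = 0.00415), whereas its relative DYRK1B was at 0.20 (edgeR adjusted p = 0.12) and RBBP7, the paralog of RBBP4, at 0.11 (edgeR adjusted p = 0.219). DYRK1A missed the threshold against control library 3 alone (edgeR adjusted p = 0.0502, range 0.000646 to 0.0502 over 15 alternatives). DYRK1B passed without palbociclib library 3 (edgeR adjusted p = 0.00901, range 0.00901 to 0.516), and RBBP7 without palbociclib library 1 (0.0268, range 0.0268 to 0.955).

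Upstream of the pocket proteins, 5 of 18 kinase, cyclin, inhibitor and phosphatase genes rose (27.8%, beside 20.1% of all genes), 8 fell (44.4%, beside 18.5%) and 5 did not pass, with a median log2 fold change of -0.08. The drug's own targets, named here for that reason, moved in opposite directions: CDK4 was at 198.2 ± 3.81 CPM with palbociclib and 174.0 ± 6.92 CPM in controls (0.19, edgeR adjusted p = 0.00645), and CDK6 at 8.86 ± 0.244 and 16.4 ± 3.37 CPM (-0.89, 0.00148). Cyclin D1 (CCND1), the activator of CDK4 and CDK6, averaged 335.2 ± 22.8 CPM with palbociclib and 249.2 ± 3.33 CPM in controls (log2 fold change 0.43, edgeR adjusted p = 0.000209). CCNE1, which activates CDK2 and thus phosphorylation of pocket proteins outside the reach of the drug, was at 20.4 ± 0.895 CPM with palbociclib and 11.5 ± 1.69 CPM in controls (0.83 ± 0.117, edgeR adjusted p = 0.00061). Of the 7 CDK inhibitor genes, CDKN1A rose and the other 6 fell. CDKN1A, which encodes p21, rose to 264.1 ± 7.68 CPM with palbociclib, against 190.7 ± 8.63 CPM in controls (0.47, edgeR adjusted p = 5.73e-05). CDKN1B, which encodes p27, fell to 74.9 ± 9.25 CPM, against 141.2 ± 4.62 CPM in controls (-0.91 ± 0.0821, edgeR adjusted p = 4.31e-05). The INK4 genes CDKN2C (-1.15, edgeR adjusted p = 0.000138) and CDKN2A (-2.59, 0.000108) fell too, as did CDKN1C (-0.88, 0.0306), CDKN2B (-0.70, 0.0280) and CDKN2D (-0.63, 0.0276), which averaged under 10 CPM in both groups and are given to complete the family. CDKN2A averaged 2.17 ± 0.84 CPM with palbociclib and 13.2 ± 1.44 CPM in controls, and shares 593 of 3885 exon bases with CDKN2B-AS1.

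**Figure D3:**
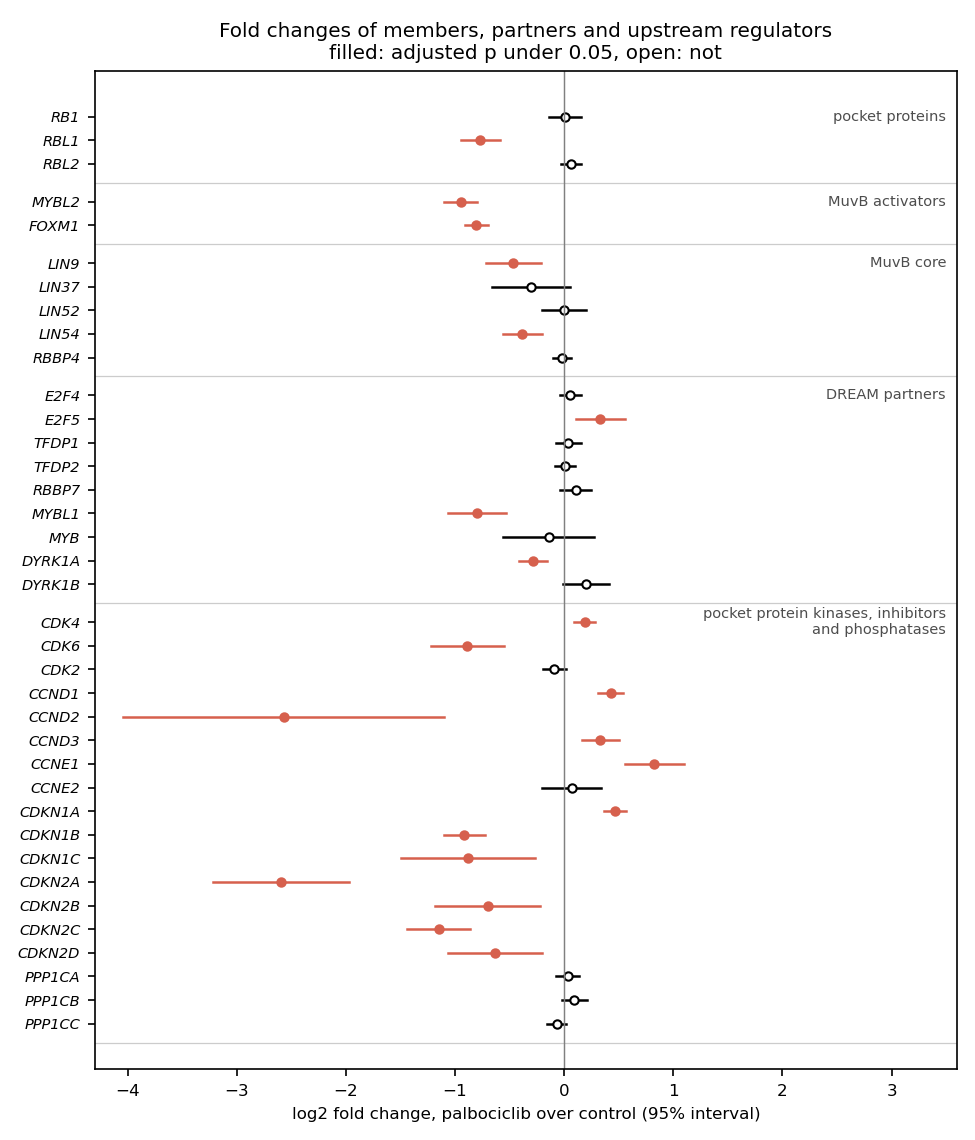
Log2 fold change, palbociclib over control (x axis), with its 95% interval for the 10 genes, the DREAM partners and the pocket protein regulators. Filled points have an adjusted p under 0.05: RBL1, MYBL2, FOXM1, LIN9, LIN54 and MYBL1 lie left of 0, while RB1, RBL2, LIN52, RBBP4 and E2F4 have intervals that span 0.

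Of 14 corepressors that pocket proteins recruit, 5 rose (35.7%, beside 20.1% of all genes) and 2 fell (14.3%, beside 18.5%), with a median of 0.01, beside a median of -0.03 over all genes tested. HDAC1, a histone deacetylase, averaged 334.6 ± 9.49 CPM with palbociclib and 273.8 ± 6.68 CPM in controls (0.29, edgeR adjusted p = 0.000385). The SWI/SNF ATPase SMARCA4 (0.34), the SIN3-associated BRMS1 (0.54) and HDAC3 (0.22) rose as well. HDAC3 lost its call in 5 of 15 alternatives, library size alone (edgeR adjusted p = 0.168) and the omission of palbociclib library 1 (0.0509) or 3 (0.0528) among them (range 0.00487 to 0.184). RBBP8, a DNA end-resection factor first found as a pocket protein partner, fell (43.8 ± 1.85 CPM with palbociclib and 69.9 ± 4.17 CPM in controls, -0.67 ± 0.0581, edgeR adjusted p = 3.41e-05), and so did the ATPase SMARCA2 (-0.34), a call that ended against control library 3 alone (edgeR adjusted p = 0.107, range 0.00216 to 0.107).

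Of 19 subunits of the other complexes that contain RBBP4, 4 rose (21.1%, beside 20.1% of all genes) and 6 fell (31.6%, beside 18.5%), with a median of -0.09. The largest fall was that of EZH2, the catalytic subunit of Polycomb repressive complex 2, at 28.3 ± 1.86 CPM with palbociclib and 92.8 ± 0.95 CPM in controls, 3.28-fold lower (-1.71 ± 0.0557, edgeR adjusted p = 1.84e-07). Chromatin assembly factor subunit CHAF1B (-0.65) and the NuRD subunits MTA1 (-0.48) and MBD2 (-0.30) also fell. EZH2, CHAF1B and its partner CHAF1A are also on the G1/S target list below, so that their falls count in both lists. SAP18, a SIN3-associated protein, rose by 0.35, and the histone acetyltransferase HAT1 by 0.22, though HAT1 lost its call with library size alone (edgeR adjusted p = 0.0813, range 0.000437 to 0.0856).

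Genes that DREAM, RB1 and E2F act on were set in a pair of lists from textbook knowledge, one for each arm of the cycle. Of 50 G1/S targets, 24 fell (48% of those tested), 6 rose (12%) and 20 did not pass, where 18.5% of all genes were called lower and 20.1% higher. Their median log2 fold change was -0.18, against -0.03 for all genes tested, and -0.29 with library size alone, where all genes stood at -0.14. The falls with the lowest adjusted p included EZH2, which is on this list as well, PRIM1, the small primase subunit (19.3 ± 0.431 CPM with palbociclib and 45.1 ± 1.97 CPM in controls, -1.23 ± 0.0596, edgeR adjusted p = 1.21e-06), and BRCA1 (-0.85) and the checkpoint kinase CHEK1 (-0.83). RRM2, a ribonucleotide reductase subunit (-0.65), and the helicase subunit MCM7 (-0.56) fell too, while its partner MCM4 rose by 0.35 (edgeR adjusted p = 0.000268) and so did CCNE1. The other genes of the list that rose, read off after their values were seen, were the helicase subunits MCM3 (0.40), MCM5 (0.25) and MCM6 (0.30) and the flap endonuclease FEN1 (0.27), and their calls under other scalings were not examined. PRIM1 shares 139 of 3309 exon bases with NACA, whose total count was far higher, and CHEK1, MCM7, BRCA1 and CCND1 also share some exon bases with other genes, whose part was not tested.

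Of 50 G2/M targets, 30 fell (60%, beside 18.5% of all genes tested), 5 rose (10%, beside 20.1%) and 15 did not pass. Their median log2 fold change was -0.26, against -0.03 for all genes tested. With library size alone it was -0.37, where all genes stood at -0.14. Per library, the list's median difference from the control mean was -0.29, -0.23 and -0.22 in palbociclib libraries and between -0.02 and 0.01 in controls. CDC20, the activator of the anaphase-promoting complex, averaged 128.1 ± 0.278 CPM with palbociclib and 186.9 ± 4.43 CPM in controls (-0.55 ± 0.036, edgeR adjusted p = 7.49e-06). The kinesins KIF23 (-0.81) and KIF2C (-0.73), the proliferation antigen MKI67 (-0.46) and topoisomerase TOP2A (-0.46) fell as well. CKS2, a CDK-binding protein, rose to 87.3 ± 0.968 CPM with palbociclib, against 56.2 ± 2.11 CPM in controls (0.64 ± 0.0438, edgeR adjusted p = 9.65e-06), and the spindle checkpoint kinase TTK rose by 0.43 (edgeR adjusted p = 0.00152). The other 3 that rose, likewise named after their values were seen, were cyclin B1 (CCNB1, 0.14), the checkpoint kinase BUB1 (0.20) and the spindle factor DLGAP5 (0.23). The calls of these 3 genes under other scalings were not examined.

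**Figure D4:**
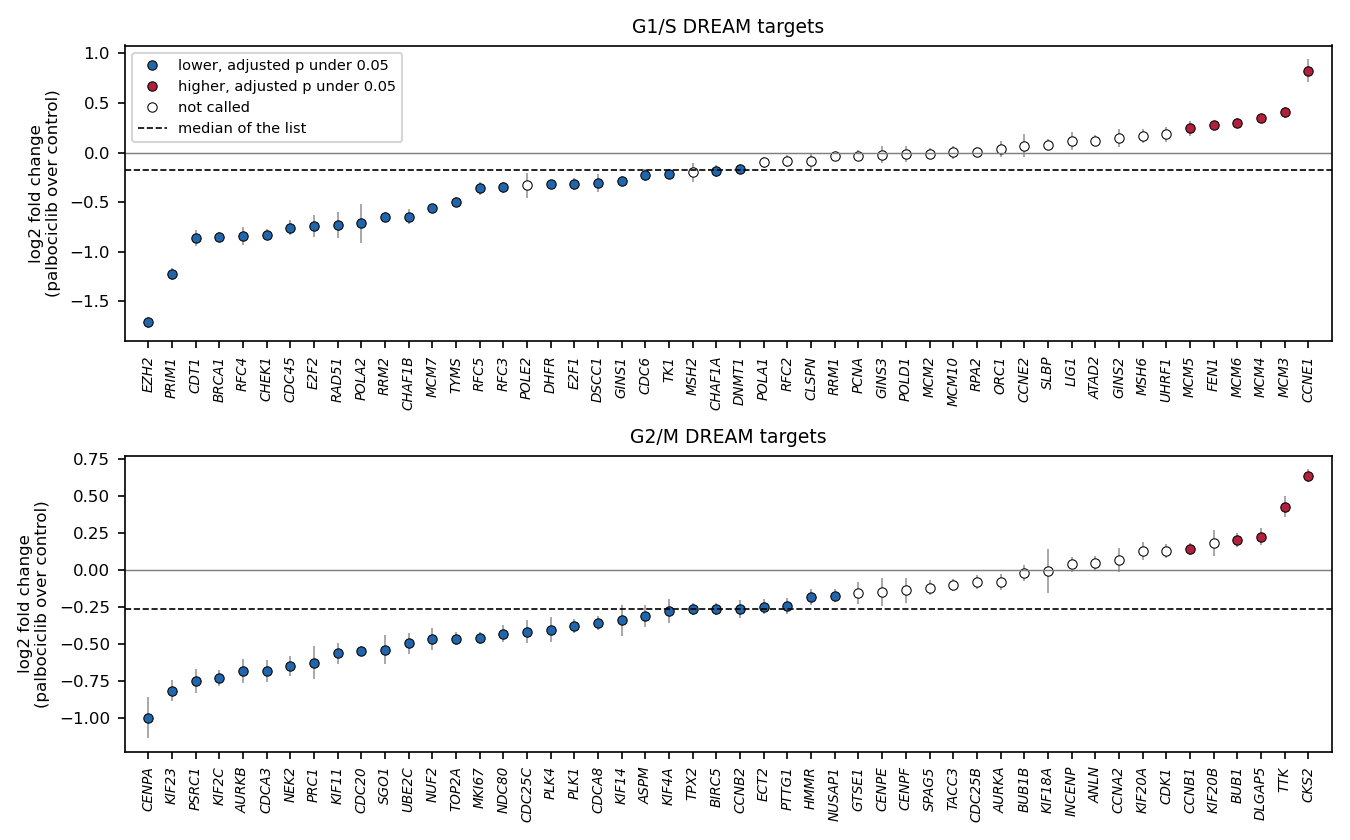
Log2 fold change with its SE for each gene of the G1/S list (top) and the G2/M list (bottom), ordered by value, with the list median dashed. In each panel most filled points lie below 0 (24 lower and 6 higher above, 30 lower and 5 higher below), and the open points did not pass the test.

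Sequence windows from promoters of some of the named targets are given because they hold letters that match the E2F and CHR elements. The search for these windows left out the promoters of 1 chromosome. A named target on that chromosome may therefore still hold a match. Any other named target without a window here had no exact match to its list's letters, or no promoter entry. Each runs 5′ to 3′ on the gene's strand with 15 bases on either side of the match nearest the start. Capitals mark TTTNNCGC in the G1/S genes, and TTTGAA or its reverse complement TTCAAA in the G2/M genes.
EZH2 window: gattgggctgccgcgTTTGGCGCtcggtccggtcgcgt
MCM7 window: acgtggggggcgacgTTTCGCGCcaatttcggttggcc
CDC20 window: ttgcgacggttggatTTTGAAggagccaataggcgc
CKS2 window: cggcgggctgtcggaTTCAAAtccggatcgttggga
KIF23 window: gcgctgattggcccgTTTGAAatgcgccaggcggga
MKI67 window: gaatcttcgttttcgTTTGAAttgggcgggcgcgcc
TOP2A window: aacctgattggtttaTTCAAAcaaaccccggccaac
They lie at chr7:148884268-148884305 (EZH2, minus strand, match at 1), chr7:100101384-100101421 (MCM7, minus strand, match at -9), chr1:43358901-43358936 (CDC20, plus strand, match at -65), chr9:89311151-89311186 (CKS2, plus strand, match at -29), chr15:69414279-69414314 (KIF23, plus strand, match at -55), chr10:128126432-128126467 (MKI67, minus strand, match at -29), chr17:40418027-40418062 (TOP2A, minus strand, match at -151). Of 41 G1/S targets with a promoter in the RefSeq table, 24 (58.5%) held TTTNNCGC, against 12.1% of 12898 genes tested with a promoter. Of 45 G2/M targets, 32 (71.1%) held TTTGAA, against 13.9% of those genes, and 1 of 41 G1/S targets did. Part of the textbook membership of these lists rests on such elements, so that the shares describe the lists and do not test them. Among the G2/M targets, 21 of 32 with the element fell (median -0.29), and 6 of 13 without it (median -0.15). Among the G1/S targets, 12 of 24 with TTTNNCGC fell and 9 of 17 without it, with a median of -0.19 in both classes. The differences between classes were not tested.

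**Figure D5:**
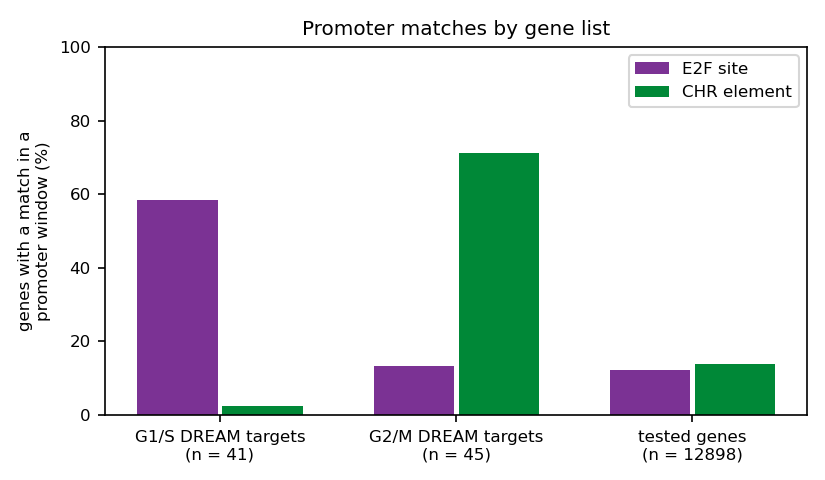
Percentage of genes (y axis, 0 to 100) with a match in a promoter window of 300 bases, for the G1/S list (n = 41), the G2/M list (n = 45) and all tested genes with a promoter (n = 12898). E2F-type matches stand at 58.5%, 13.3% and 12.1%, and CHR matches at 2.44%, 71.1% and 13.9%.

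With the members themselves left out, the genes whose levels ran most like RBL1, MYBL2 and FOXM1 over the 6 libraries were of other kinds. For RBL1 they were the integrin ITGA2, the non-coding RNA FAM225B and the autophagosome gene MAP1LC3B. For MYBL2 they were ODC1-DT, the mTOR subunit MLST8 and TMEM98, and for FOXM1 NDUFA4L2, TMEM8B and RHBDD1. Pearson's r of log2 CPM was 0.998 to 0.999 in each case. It was above 0.95 for 1103, 1151 and 1250 of 11711 genes compared with RBL1, MYBL2 and FOXM1, so that it mainly describes the difference between the groups.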

How the data were processed

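The submitters' processing notes list cutadapt 1.9, HISAT2 2.0.4, StringTie 1.3.4d, edgeR and the hg38 build. The series' design text names fastp for read cleaning and gffcompare for merging transcripts. The authors deposited estimated counts, already whole numbers, and FPKM values per gene. The annotation release and the strand of the library are not given in the sources used here. About 4 deposited counts correspond to a fragment, so counts overstate depth.

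Counts were fitted with edgeR 4.0.16 in R 4.3.3 (filterByExpr, min.count 10 and min.total.count 15, TMM scaling, glmQLFit and glmQLFTest, no block), keeping 21218 of 35430 genes and removing 14212. The SE is the absolute log2 fold change over the square root of F. Intervals are 95%. The script was tested on simulated data. At a log2 change of 1 it recovered 56.2% of changed genes, and 91.4% of those with a mean of at least 5 CPM. At a change of 0.5 it recovered 33.3% and 60.4%, so that modest changes can be missed. It called 0.0196% of unchanged genes. Only 200 genes were changed in the simulation, so that these shares need not hold for the data. Alternatives were edgeR with other scalings or no filter, DESeq2 1.42.0, limma 3.58.1 on log2(FPKM + 1) and log2(FPKM + 0.1), counts divided by 4, a replicate block and omission of each library. A fit against control library 3 alone was chosen after seeing the data.

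The members, lists and tests were chosen with earlier results of these data known. Of each list, up to 6 genes with the lowest adjusted p and up to 2 called against the list's majority were named, and the 3 genes most like RBL1, MYBL2 and FOXM1 (mean of at least 5 CPM, log2 CPM with a prior count of 2). CDK4, CDK6, further CDK inhibitors and further targets that rose were added after their values were seen. Exon overlap is from GENCODE 44, which held 35399 of the gene identifiers. Replicates differed beyond sampling noise (chi-square per degree of freedom 3.22 to 5.74 on counts divided by 4).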

Additional observations from a re-analysis of the deposited data

How the results depend on the processing

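Under 15 alternatives, MYBL2, FOXM1, RBL1, LIN9 and LIN54 stayed lower and past the threshold in every one, and RB1, RBL2, LIN37 and LIN52 did not pass in any. RBBP4 was called lower with library size alone (-0.13), on log2(FPKM + 1) (-0.12) and on log2(FPKM + 0.1) (-0.13). The numbers of genes, members and targets called stayed within 1.5 times the reported ones, except that 2182 genes were lower against control library 3 alone, a fit with a single control that is assumed to vary like the treated libraries. Higher genes made up 52.1% of calls with TMM, 36.1% with library size alone, 37.5% on log2(FPKM + 1), 37.3% on log2(FPKM + 0.1) and 58.1% against control library 3 alone. The G1/S median was -0.29 with library size alone, -0.22 on log2(FPKM + 1) and -0.28 on log2(FPKM + 0.1), and -0.20 to -0.13 with each library left out. The G2/M median was -0.37 with library size alone, -0.34 on log2(FPKM + 1), -0.37 on log2(FPKM + 0.1) and -0.32 against control library 3 alone, and -0.28 to -0.22 with each library left out. The RBL2 to RBL1 difference was 0.65 on log2(FPKM + 1), against 0.84 as reported. The cause of these shifts was not tested. Replicate numbers did not pair the libraries: deviations of same-numbered libraries correlated at -0.00794, -0.0341 and -0.0311, and no library correlated best with its own number. With the replicate number as a block, 3855 genes were higher and 3438 lower, 5 members were called, and 21 G1/S and 28 G2/M targets fell, with medians of -0.18 and -0.26. Differences within replicate numbers gave 0.84, -0.66 and -0.52 for the ratios of RBL2, MYBL2 and FOXM1, each at the smallest exact sign-flip p of 0.25. LIN37 had the fewest counts of the members, and the part of depth in its wide interval was not tested.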
